A study of Mus musculus with 4 samples.

Results

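Heat-shock and cold-inducible genes were followed through classical monocytes (Ly6Chi) of the bone marrow. The set held 10 of the 27998 genes in the count tables and was taken by symbol: the cold-inducible RNA-binding protein genes Rbm3 and Cirbp, the HSP70 family genes Hspa1a, Hspa1b, Hspa8 and Hspa5, the HSP90 genes Hsp90aa1 and Hsp90ab1, and the partner genes Dnajb1 and Hsph1. All 10 symbols were found in both pools. The set was picked for its UMIs (unique molecular identifiers, 1 per captured RNA molecule) per mouse in old and young animals, and for the correlation of the heat-shock genes with Rbm3 and Cirbp over cells. Those values of the members are therefore given below as a description, and the counts of members called by age only show their place among all genes. Tests of members were kept for comparisons between cells of the same mouse, and for the difference of these between pools. Partner genes outside the set were also read by age.

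The mice were wild-type C57BL/6 animals in 4 groups of 5. By the methods, ages in the male experiment were 14 weeks (young) and 27 months (old). In the female experiment they were 15 weeks (young) and 26.5 months (old). Marrow of each mouse was stained with its own hashtag antibody, the 10 mice of a sex were pooled, and Ly6G- CD11b+ CD115+ Ly6Chi cells were sorted and run as 1 scRNAseq pool, so sex and experiment cannot be told apart. The mouse was the replicate.

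The male data held 1227 cells (49 to 206 per mouse) and the female data 6641 cells (259 to 1592 per mouse). Summed UMIs per mouse ran from 330586 to 1108320 in males and from 2827638 to 18186954 in females. Cells of old mice were deeper. Medians per cell were 4490 to 8844 UMIs in old males but 3806 to 4456 in young ones, while old females had 9700 to 13033 and young females 7978 to 8990. The 6 monocyte markers Ly6c2, Csf1r, Ccr2, Itgam, Fn1 and Lyz2 had UMIs in every group. Their sum was 15614 to 32594 CPM (counts per 1000000 UMIs of the mouse, or of the class in a mouse) in old males and 33491 to 36204 in young males, while the 5 neutrophil markers reached 11815 in old and 6991 in young males. These neutrophil markers were Retnlg, Mmp8, Ly6g, S100a8 and S100a9, and Retnlg was at 0 in old males. Of the 6 T and NK cell markers 5 were in the data. Gzma was at 0 in all 4 groups, Ncr1 in old and young males and Cd3e in old males. Of the B cell markers Ms4a1 was at 0 in males and Ebf1 in old males. The remaining markers of both lists in the data had UMIs. The T and NK sum was 40.5 to 129 CPM in old and 14.8 to 55.3 in young males. The B cell sum was 13.1 to 23.5 in old and 9.83 to 30.6 in young males. Basophil markers all had UMIs in males, at a median sum of 116 CPM in old and 33.5 in young mice. The highest young male was at 477, and the highest old male lay above it. Pools shared 0 barcode sequences.

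Heat-shock proteins are chaperones that bind unfolded or newly made proteins. HSP70 proteins work with J-domain partners such as Dnajb1, which hand over clients and stimulate ATP hydrolysis, and with exchange factors such as Hsph1, which release the nucleotide. HSP90 proteins then complete the folding of kinases and receptors. Heat and other stresses that unfold proteins activate heat-shock factor 1, which binds repeats of nGAAn and switches on the inducible members Hspa1a and Hspa1b, whereas Hspa8 and Hsp90ab1 are made constitutively. Hspa5 is the HSP70 of the endoplasmic reticulum and answers to the unfolded protein response. Rbm3 and Cirbp are RNA-binding proteins that increase on mild cooling. Inducible heat-shock genes and immediate early genes are also known to be switched on while tissue is taken apart into single cells.

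By the GENCODE M21 annotation of GRCm38, Hspa1a (chr17:34969190-34972156) and Hspa1b (chr17:34956436-34959238) were single-exon genes on the minus strand with 9951 bases between them. Hsp90ab1 (chr17:45567775-45573271, minus strand) was on the same chromosome. The others were Hspa5 (chr2:34771970-34777547, plus), Hsph1 (chr5:149614287-149636376, minus), Dnajb1 (chr8:83608193-83612653, plus), Hspa8 (chr9:40800984-40810087, plus), Cirbp (chr10:80165985-80172786, plus), Hsp90aa1 (chr12:110690605-110702728, minus) and Rbm3 (chrX:8138975-8145880, minus). All 10 were protein-coding.

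Promoter windows from RefSeq on GRCm38.p6, 250 bases before to 50 bases after the annotated start, were at hand for 6 of the 10 genes (Cirbp, Hspa1a, Hspa1b, Hspa5, Dnajb1 and Hsph1). The windows of Hspa1a (chr17:34972107-34972406) and Hspa1b (chr17:34959189-34959488) are shown because these near-identical copies are read as a pair below, that of Hsph1 (chr5:149636287-149636586) because its heat-shock element was the fullest, and that of Hspa5 (chr2:34771840-34772139) for its different element. All are written 5′ to 3′ on the strand of the gene. Capitals mark the heat-shock matches GAANNTTC and TTCNNGAA in the first 3, and in the last the endoplasmic reticulum stress element, which is CCAAT and CCACG with 9 bases between them.
Hspa1a: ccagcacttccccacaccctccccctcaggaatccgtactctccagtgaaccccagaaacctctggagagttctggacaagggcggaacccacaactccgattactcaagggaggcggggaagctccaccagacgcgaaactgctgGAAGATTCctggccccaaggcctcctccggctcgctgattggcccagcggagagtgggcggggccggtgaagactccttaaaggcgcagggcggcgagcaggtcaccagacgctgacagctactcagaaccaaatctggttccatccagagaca
Hspa1b: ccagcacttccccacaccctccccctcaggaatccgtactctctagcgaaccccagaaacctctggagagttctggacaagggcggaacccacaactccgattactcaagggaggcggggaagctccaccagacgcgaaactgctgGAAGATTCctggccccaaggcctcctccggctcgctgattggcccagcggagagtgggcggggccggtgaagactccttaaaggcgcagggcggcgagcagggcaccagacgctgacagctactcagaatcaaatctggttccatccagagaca
Hsph1: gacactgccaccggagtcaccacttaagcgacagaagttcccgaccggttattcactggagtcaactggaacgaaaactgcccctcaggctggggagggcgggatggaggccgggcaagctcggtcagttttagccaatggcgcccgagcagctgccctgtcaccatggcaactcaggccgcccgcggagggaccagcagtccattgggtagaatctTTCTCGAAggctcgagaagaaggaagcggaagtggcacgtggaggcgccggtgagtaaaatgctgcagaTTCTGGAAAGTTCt
Hspa5: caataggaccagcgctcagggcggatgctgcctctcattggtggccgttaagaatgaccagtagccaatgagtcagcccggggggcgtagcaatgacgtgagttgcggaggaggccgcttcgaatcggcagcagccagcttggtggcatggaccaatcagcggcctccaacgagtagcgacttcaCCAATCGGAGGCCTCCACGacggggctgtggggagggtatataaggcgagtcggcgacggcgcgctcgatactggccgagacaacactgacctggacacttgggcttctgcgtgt

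The Hspa1a and Hspa1b windows differed at 4 of 300 bases, and each held a single GAANNTTC match starting 104 bases before the start. Hsph1 held a 3-unit element from 36 bases after the start, in which TTCNNGAA and GAANNTTC share their GAA, so that it takes in a match to each of the shorter forms. It held a further TTCNNGAA 33 bases before the start. Searched on both strands, the 3-unit element was found in 0.603% of 32851 promoter windows, GAANNTTC in 7.86% and TTCNNGAA in 8.52%. The endoplasmic reticulum element was in 0.119% of windows and among these 6 genes only in that of Hspa5, 65 bases before the start. CCAAT was in at least 1 window of all 6 genes and in 37.4% of windows, and TATAAA was in 0 of the 6 and 13.6% of windows. Hsph1, Dnajb1 and Cirbp each had a second window, and those of Dnajb1 and Cirbp held no CCAAT. Counts by gene and shares of windows are therefore not the same measure. A match is a description of these letters and not a site.

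The coding sequences of Hspa1a and Hspa1b were 99.6% identical (7 differences over 1923 bases). Of all stretches of 50 bases in the Hspa1a transcript, 58.8% also occurred in Hspa1b. In the last 500 bases of each transcript, from which a 3′ library draws most of its reads, 0 of 451 such stretches were shared. Reads from further inside can match both genes, so counts of either gene alone are uncertain to that extent.

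Rbm3 was higher in old than in young males. The old males had 1547, 1565, 1761, 1939 and 1413 CPM of Rbm3 in mice 1 to 5, and the young males 1222, 1211, 1280, 1286 and 1281. The groups did not overlap. The log2 fold was 0.39 (SE 0.07, 5 old against 5 young mice). Old females had 968, 1145, 1200, 1276 and 1133 and young females 1126, 1114, 1119, 1117 and 1150 CPM, so that the young group sat inside the range of the old one. Old female 1, the lowest, had 64.6% of its cells in the DCMo class defined below, against 5.83% to 20.2% in the other females. The female log2 fold was 0.03 (SE 0.05).

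**Figure D1:**
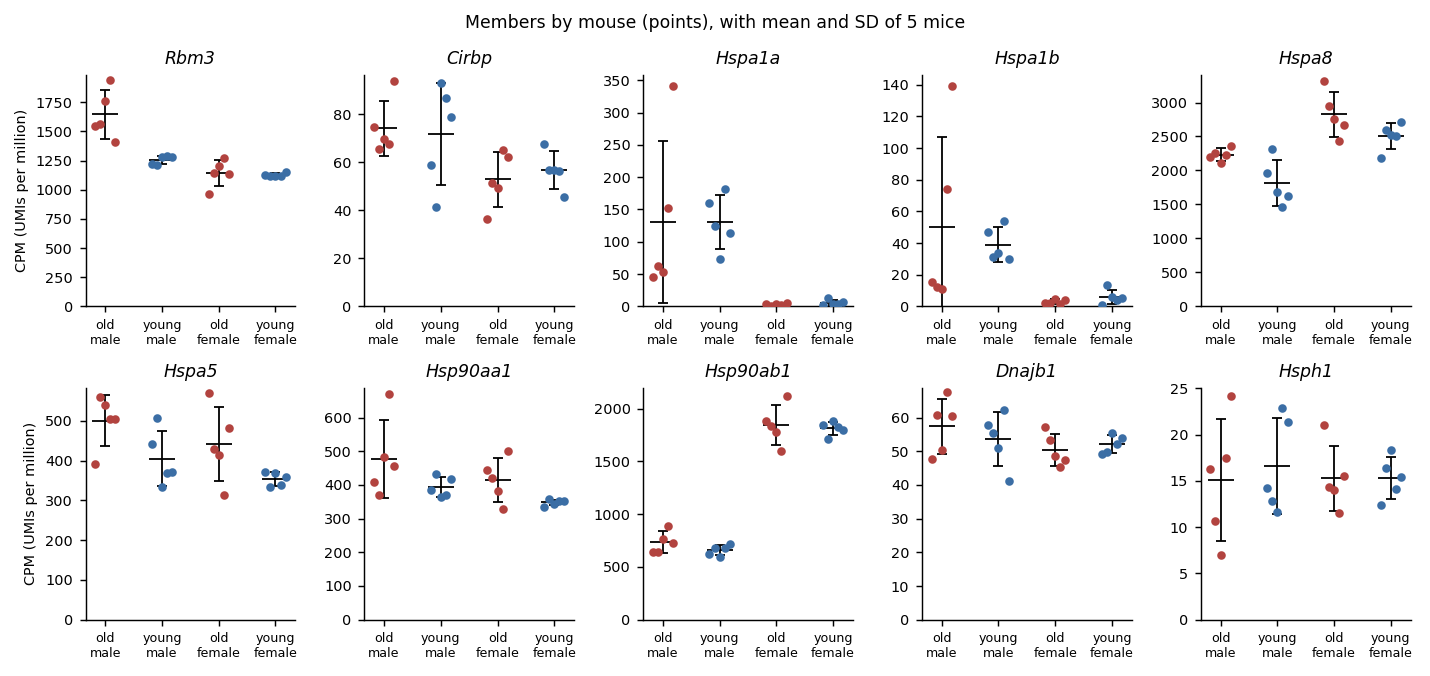
Each point is the CPM (y axis) of 1 mouse for 1 gene, in old and young mice of the male and the female pool, with the mean and SD of 5 mice in black (a bar that would pass below 0 is drawn to 0). Rbm3 was at 1413 to 1939 in old and 1211 to 1286 in young males, and Hspa1a and Hspa1b were spread widely over old males and low in all females.

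The share of cells with an Rbm3 UMI was 97.0% ± 1.01 in old and 93.0% ± 2.48 in young males (SD, n = 5). With each cell thinned to 2000 UMIs, so that depth was equal, it was 93.3% ± 4.05 and 83.8% ± 3.49. In females the thinned shares were 86.3% ± 1.19 in old and 84.9% ± 1.82 in young mice. In summed counts a change in the mix of cells and a change in RNA per cell cannot be told apart. Mice differed in their shares of marker-high cells. Old male 4, highest for Rbm3, had 42.9% of its cells in the G2/M class, against 12.7% to 19.6% in the other males, and 2 old males had 38.8% and 42.9% in the DCMo class against 9.70% to 12.6% in young males. Without the G2/M cells the male log2 fold was 0.50 (SE 0.09), and without old male 4 it was 0.33. The part of the lower monocyte marker sum of old males in it was not tested.

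Cirbp was sparse, with 486 UMIs in all males and 4433 in all females. Levels were 65.4 to 93.8 CPM in old and 41.3 to 93.2 in young males. Old females had 36.6 to 65.2 and young females 45.7 to 67.8. Old and young overlapped in both pools, with log2 folds of 0.04 (SE 0.19) in males and -0.08 (SE 0.13) in females. Its sign turned when single mice were left out, with a range of -0.11 to 0.15 in males and -0.17 to 0.02 in females. Old male 5 had the highest Cirbp and the lowest Rbm3 of the old males.

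The stress-inducible pair varied widely between mice. Old males had 45.1, 62.4, 53.1, 153 and 342 CPM of Hspa1a in mice 1 to 5, and young males 161, 124, 72.8, 182 and 114. Old males 1 to 3 were below all young males, and old male 5 was above all of them. The mean was 131 ± 126 in old and 130 ± 42.3 in young males (SD, n = 5), and the fitted log2 fold was -0.24 (SE 0.43). Without old male 5 it was -0.87, so this mouse decided the size of the value. Old male 5 also had 42.9% DCMo-class cells, and old male 2, with 38.8%, was at 62.4. Hspa1b likewise was highest in old males 5 and 4, with 15.3, 12.2, 11.2, 74.1 and 139 in old and 47.0, 31.3, 33.5, 54.0 and 29.6 in young males.

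The median CPM of both genes was far lower in females, although Hspa1b had 329 UMIs in females and 252 in males. Hspa1a was at 1.24 to 4.61 CPM in old and 1.96 to 13.0 in young females, a total of 335 UMIs over 6641 cells. Hspa1b was at 1.64 to 4.83 in old and 0.754 to 13.3 in young females. The log2 folds were -0.97 (SE 0.44) and -0.80 (SE 0.48), and the groups overlapped for both genes. Young female 2 was highest for both. The lowest male (45.1) was above the highest female (13.0) for Hspa1a. Pools were separate experiments, and the headers of their data name different versions of the counting software, so sex, handling and processing cannot be told apart here.

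The inducible pair was unevenly spread over cells and mice. In males 12.1% to 58.9% of the cells of a mouse had an Hspa1a UMI, and after thinning 5.05% to 38.9%, with old male 5 highest and old male 1 lowest. In females these shares were 1.62% to 7.03%, and 0.172% to 1.81% after thinning, near the level of 1 UMI. Hspa1b was found in 42.9% of the cells of old male 5, or 25.9% after thinning. The tenth of cells with most Hspa1a held 38.9% to 92.0% of its UMIs in a male mouse, and up to 32 UMIs were seen in a single cell. For other sparse members this share was 75% to 100% (Hsph1), 35.5% to 76.3% (Dnajb1) and 45.3% to 55.4% (Cirbp) in males. It was 21.9% to 34.9% for the abundant Hspa8. A high share was thus also seen for the sparse Hsph1. Cirbp and Dnajb1, however, had fewer UMIs in males than Hspa1a (486 and 370 against 776). In young male 1 the share was 85.7% for Hspa1a (147 UMIs), 48.1% for Cirbp (54) and 47.2% for Dnajb1 (53). In old male 5 it was 38.9%, 48.4% and 45% in that order. Sparse counts alone therefore do not order these shares. The sort held no cell type that should lack these genes, so the part of free RNA in low shares was not measured.

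Detection of the pair was set side by side in single cells. Of the 135 male cells with an Hspa1b UMI 65.2% also had an Hspa1a UMI, against 15.2% of the other male cells. At equal depth these shares were 52.9% of 70 cells and 10.2%. In females they were 21.2% of 226 cells and 2.90%, and at equal depth 6 of 54 cells and 0.714%. These shares take the cells of all mice of a pool together, so differences between mice in both genes enter them. Over the cells of a mouse the median r of the pair was 0.39 in males (0.02 to 0.50, above 0 in 10 of 10 mice) and 0.15 in females (-0.02 to 0.39, above 0 in 8 of 10). At equal depth it was 0.35 in males, above 0 in 7 of 10 mice, and 0.06 in females, above 0 in 4 of the 8 mice with a value. The part of reads shared between the copies in this was not tested.

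Hspa8, the main cytosolic HSP70, was at 2108 to 2362 CPM in old and 1468 to 2321 in young males, and at 2440 to 3319 in old and 2191 to 2709 in young females. The groups overlapped in both pools, with log2 folds of 0.30 (SE 0.10) in males and 0.18 (SE 0.07) in females. Hspa5 was at 392 to 561 in old and 333 to 507 in young males, and at 314 to 570 in old and 334 to 372 in young females. Its log2 folds were 0.30 (SE 0.12) and 0.32 (SE 0.11). Old female 4 was the lowest and old female 1 the highest of all females, and without old female 1 the female fold was 0.21.

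Hsp90aa1, the inducible HSP90, was at 371 to 671 CPM in old and 365 to 433 in young males, and at 328 to 502 in old and 336 to 358 in young females. Old mice were the more variable in both pools, and the groups overlapped. The log2 folds were 0.27 (SE 0.12) and 0.26 (SE 0.08). Hsp90ab1, its constitutive relative, was at 591 to 891 in males and 1597 to 2120 in females, with log2 folds of 0.15 (SE 0.09) and 0.03 (SE 0.06). Old male 4 was the highest male for both genes, and had 36.7% of its cells in the NeuMo class defined below. Shares of that class were 12.9% to 36.7% in old and 12.1% to 15.7% in young males. In females they were 17.2% to 33.4% in old and 19.8% to 25.1% in young mice. Old female 2, with the highest share of females, was not the highest for either gene (422 and 1838 CPM). The part of these shares in the folds was not tested.

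Dnajb1 was at 41.2 to 67.5 CPM over all males and 45.3 to 57.2 over all females, and its log2 folds were 0.06 (SE 0.16) and -0.05 (SE 0.07). Hsph1 had only 103 UMIs in males, or 6.98 to 24.2 CPM, and 11.6 to 21.0 CPM in females. Its log2 folds were -0.21 (SE 0.31) and 0.01 (SE 0.14).

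**Figure D2:**
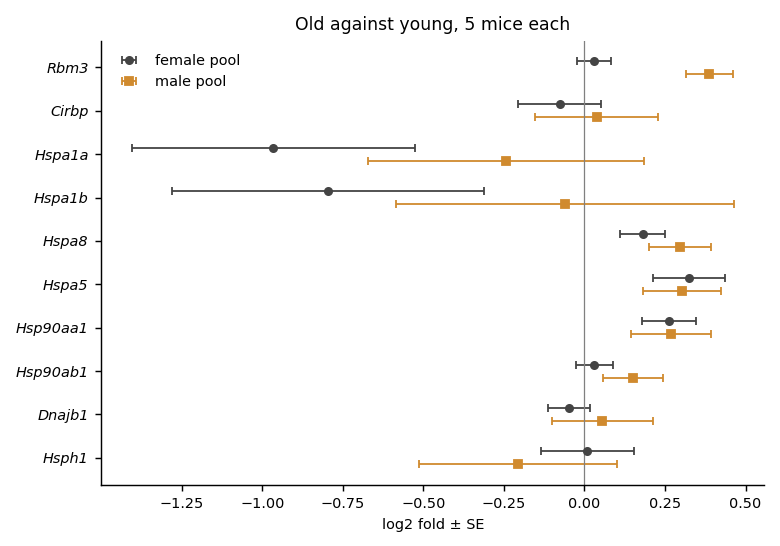
Log2 fold of old against young with its SE for each of the 10 genes, in the female (circles) and the male pool (squares), from 5 old and 5 young mice each. Hspa8, Hspa5 and Hsp90aa1 lay between 0.18 and 0.32 in both pools, Rbm3 was at 0.39 in males and 0.03 in females, and Hspa1a and Hspa1b had the widest errors.

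Over all genes, edgeR (quasi-likelihood test, adjusted p under 0.05) called 3.42% of 10074 genes by age in females and 0% of 5656 in males. An unadjusted p under 0.05 was reached by 1667 of these genes in females and 618 in males. DESeq2 called 23 of 13168 genes in males and 400 of 16511 in females. Of the 10 members 0 were called in either pool by edgeR, with 4 at an unadjusted p under 0.05 in each. DESeq2 called 1 in males (Rbm3) and 0 in females. In other edgeR settings 3 members were called in females without old female 4, where 522 of 10132 genes were called. With a leading hashtag of 80% or more it was 1 member in females, and 453 of 10209 genes. Without a filter on low counts 1 was called in each pool, among 392 of 16511 genes in females and 95 of 13168 in males. In males 1 was called without old male 1 (39 of 5765 genes) and 1 without old male 4 (24 of 5908 genes). The old and young groups did not overlap for 2.12% of genes in males, which included Rbm3 and no other member, and for 5.74% in females, with 0 members. These counts use the contrast the members were picked on, so nothing is read from them.

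Partner genes were read from 8 lists of 98 genes. By age, edgeR called 2 higher and 9 lower of 89 tested in old females, and 0 of 76 in old males, of which 22 had an unadjusted p under 0.05. In females 0 of the 16 tested HSP70 and HSP40 partners, 0 of the 9 HSP90 co-chaperones, 0 of 7 mitochondrial chaperones, 0 of 7 TRiC subunits (the cytosolic folding chamber) and 0 of 10 cold-shock domain and related genes were called. The numbers of these with an unadjusted p under 0.05 were 2, 1, 1, 0 and 2, in that order, against 1667 of all 10074 genes. Of 18 endoplasmic reticulum genes Hsp90b1, the HSP90 of that compartment, was called higher (log2 fold 0.28, SE 0.07, adjusted p = 0.029). Of these 18 genes, 11 had an unadjusted p under 0.05. The median log2 fold of that list was 0.17, against -0.0012 over all genes, and 15 of 18 were above 0. In males it was 0.043, against 0.0079 over all genes, with 11 of 16 above 0 and 2 at an unadjusted p under 0.05.

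The 9 lower and the other higher genes in females were all immediate early genes, of which 16 were tested. Jun fell by 0.94 on the log2 scale (SE 0.08, adjusted p = 1.7e-05), Fosb by 0.99, Dusp1 by 0.61 and Jund by 0.56, while Ier3 rose by 1.12. In old males 0 of 14 immediate early genes were called, 10 had an unadjusted p under 0.05, and the median log2 fold was -0.36 with 0 of 14 above 0. Summed over the 17 genes, the list was at 2034 to 2529 CPM in old and 2654 to 3265 in young males, and at 1738 to 2100 in old and 2410 to 2715 in young females.

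Cells were next compared by state within mice. They were classed by summed UMIs of markers per 10000 UMIs of the cell, with a cut at 20, and each class was compared with all other cells of the same mice, with the mouse as a block. G2/M cells carry mitosis genes such as Mki67, Top2a and Ccnb1. NeuMo are neutrophil-like monocytes and were marked by the granule genes Elane, Mpo, Prtn3, Ctsg, Camp, Ngp, Fcnb and Ltf. DCMo are monocytes with dendritic cell features and were marked by Cd74, Klrd1, H2-Eb1, Cd209a, H2-Aa and H2-Ab1. The paper reports Cd74, H2-Eb1, H2-Aa and H2-Ab1 as higher in old mice of both sexes. In the share of cells over this cut, more such cells and more marker RNA per cell therefore cannot be told apart between ages. No marker was a member. Such a class is a range of a score, and 22 to 63 male and 195 to 406 female cells lay within 20% of each cut.

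**Figure D3:**
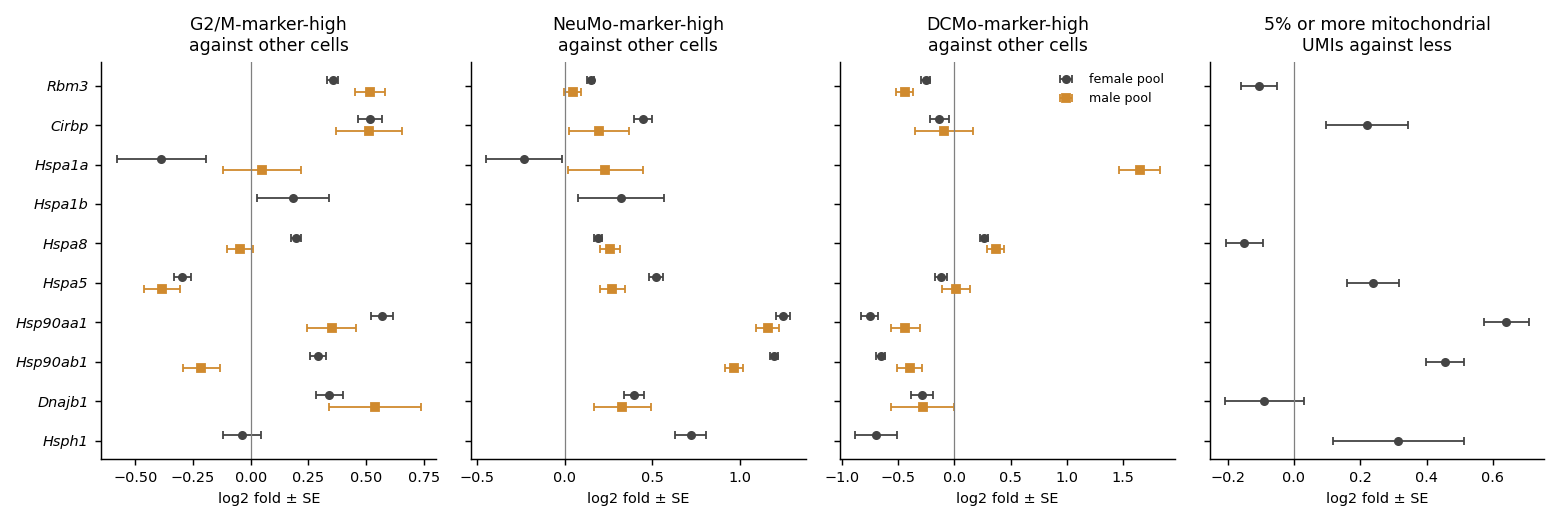
Log2 fold with SE of each member between G2/M-, NeuMo- and DCMo-marker-high cells and the other cells of the same mice, in the female (circles) and male pools (squares), and between female cells with 5% or more mitochondrial UMIs and those with less. Genes that did not pass the filter on low counts have no point. Both HSP90 genes lay near 1.2 in female NeuMo-high cells and below 0 in DCMo-high cells, and Hspa1a stood at 1.64 in male DCMo-high cells.

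In NeuMo-marker-high cells (1504 of 6641 female and 194 of 1227 male cells) both HSP90 genes were higher. Hsp90aa1 was at 537 to 739 CPM in these cells and 217 to 321 in the other cells of the females, and at 608 to 918 against 272 to 443 in males. Its log2 folds were 1.24 (SE 0.04, adjusted p = 1.3e-19) and 1.16 (SE 0.06, adjusted p = 7.3e-15). Hsp90ab1 was at 2566 to 3061 against 1155 to 1319 in females and 989 to 1178 against 462 to 632 in males. Its log2 folds were 1.19 (SE 0.02, adjusted p = 4.5e-24) and 0.97 (SE 0.05, adjusted p = 7.1e-15). Classes did not overlap in either pool for either gene, and 10 of 10 mice were higher in each. How many of all genes had classes that did not overlap was not counted.

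Hspa5 rose in the same cells, by a log2 fold of 0.52 (SE 0.04, adjusted p = 6.8e-12) in females and 0.27 (SE 0.07, adjusted p = 0.0023) in males, the latter not called at 2000 UMIs per cell (log2 fold 0.17, adjusted p = 0.30), and Hspa8 by 0.19 and 0.26. In females Hsph1 rose by 0.72, Cirbp by 0.44, Dnajb1 by 0.40 and Rbm3 by 0.15. In all, 8 of 10 members tested in females and 4 of 8 in males were higher and 0 were lower, where 38.8% of all genes tested were higher and 40.4% lower in females, and 29.7% and 28.8% in males. Hspa1a and Hspa1b, with log2 folds of -0.23 (SE 0.22) and 0.32 (SE 0.25) in females, did not pass the test. Hspa1a was lower in 9 of 10 females and Hspa1b in 5 of 10, on 110 and 137 UMIs in NeuMo-high cells.

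NeuMo-high cells were deeper, at a median of 19794 against 8494 UMIs in females and 9637 against 4165 in males. At 2000 UMIs per cell the Hsp90aa1 log2 fold was 1.37 in females and 1.21 in males, and that of Hsp90ab1 1.14 and 0.89. In females 836 of the NeuMo-high cells were also G2/M-high. Among cells outside G2/M, a comparison chosen after seeing the data, the log2 fold of Hsp90aa1 was 1.88 in females and 1.42 in males.

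Other chaperones were read in the same cells. Of the HSP90 co-chaperones edgeR called 7 of 9 higher in females and 4 of 6 in males, among them Fkbp4 (log2 fold 1.19 and 1.13), a peptidyl-prolyl isomerase, and Cacybp (0.84 and 0.88). In females Unc45a, a co-chaperone of myosin folding, was lower (-0.37, adjusted p = 0.0020), and in males 0 were lower. Of the mitochondrial chaperones 7 of 7 and 5 of 5 were higher, with Hspd1, the HSP60 of the mitochondrion, at 1.76 and 1.45, and of TRiC 7 of 7 and 6 of 7. Other lists went both ways. Of the HSP70 and HSP40 partners 12 of 16 and 6 of 10 were higher, and 2 and 0 lower. Of the endoplasmic reticulum genes 12 of 18 and 9 of 14 were higher, and 5 and 2 lower. Of the cold-shock domain and related genes 6 of 10 and 4 of 7 were higher, and 4 and 1 lower. Of the immediate early genes 14 of 15 and 11 of 11 were lower, with Ier5 at -2.54 and -3.29. The list medians were 0.51 and 0.82 for co-chaperones, 1.03 and 0.91 for mitochondrial chaperones, 0.48 and 0.42 for TRiC and -1.60 and -1.30 for immediate early genes, against -0.016 and 0.0092 over all genes tested.

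DCMo-marker-high cells (920 female and 200 male cells) showed lower Rbm3 and HSP90 and higher Hspa8. Rbm3 was at 830 to 1005 CPM in these and 1003 to 1324 in other cells of females, and at 726 to 1227 against 1222 to 1843 in males. It was lower in 10 of 10 females and 9 of 9 males, with log2 folds of -0.26 (SE 0.04, adjusted p = 5.3e-06) and -0.44 (SE 0.08, adjusted p = 4.8e-05). Hsp90aa1 was at -0.75 (SE 0.07) and -0.43 (SE 0.13), Hsp90ab1 at -0.65 (SE 0.04) and -0.40 (SE 0.11), and all 4 passed the test. Female Hsp90ab1 was at -0.36 at 2000 UMIs per cell. The male Hsp90aa1 call was lost at 2000 UMIs per cell (log2 fold -0.24, adjusted p = 0.37). Hspa8 was higher by 0.26 (SE 0.04) and 0.37 (SE 0.07), the latter not called without a filter on low counts (log2 fold 0.07, adjusted p = 0.76), a setting in which the median of all genes was at -0.30.

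Hspa1a was higher in DCMo-high cells of males. It was at 95.7 to 520 CPM (median 203) in DCMo-high cells and at 28.1 to 253 (median 89.1) in the other cells of the same 9 mice. It was higher in 9 of 9 mice, both old and young, with a log2 fold of 1.64 (SE 0.18, adjusted p = 1.4e-08 by edgeR). This rested on 207 UMIs in DCMo-high and 499 in other cells. The log2 fold was 1.83 at 2000 UMIs per cell and 1.54 to 1.79 with each mouse left out. Old male 4 had under 10 DCMo-high cells and did not enter.

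**Figure D4:**
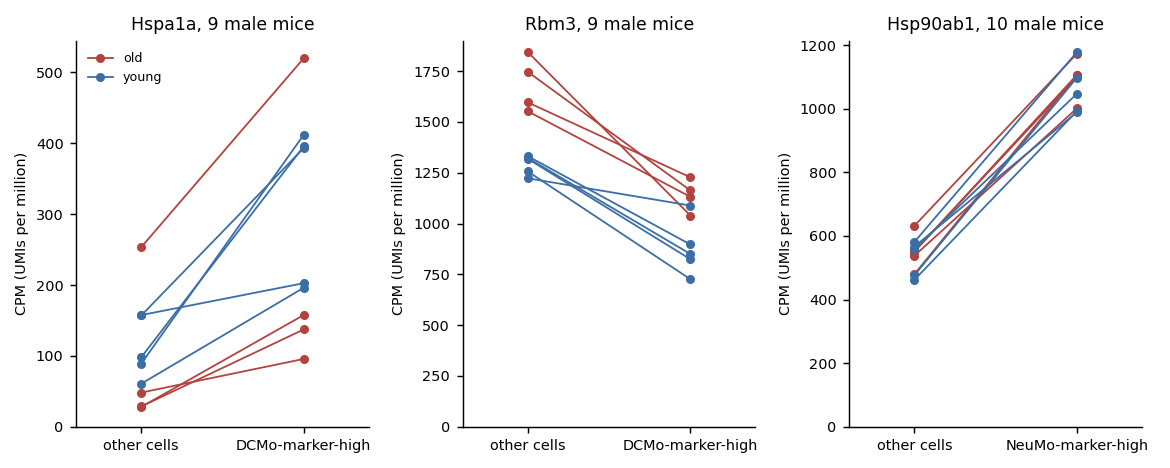
CPM in other cells and in marker-high cells of the same mouse, joined by a line, for Hspa1a and Rbm3 by DCMo class (9 males) and Hsp90ab1 by NeuMo class (10 males), in old (red) and young (blue) mice. Hspa1a rose in 9 of 9, Rbm3 fell in 9 of 9 and Hsp90ab1 rose in 10 of 10 mice.

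In females Hspa1a was too low to pass the filter, with 56 UMIs in DCMo-high and 279 in other cells, and 7 of 10 mice were higher. Without the filter its log2 fold was 1.19 (adjusted p = 0.00080), and by DESeq2 1.04 (adjusted p = 0.033). Hspa1b in DCMo-high cells had 54 UMIs in males and 34 in females, and was higher in 7 of 9 and 4 of 10 mice. It did not pass the filter in either pool, and DESeq2 put it at 1.09 in males (adjusted p = 0.043), where its median over all genes was 0.31. In all, 2 of 8 members tested were higher and 3 lower in males, where 17.8% of genes were higher and 14.9% lower, and 1 of 8 was higher and 5 lower in females, where 26.4% were higher and 24.5% lower.

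Immediate early genes were higher in DCMo-high cells, 13 of 15 tested in females and 9 of 11 in males with 0 lower, at list medians of 0.91 and 0.84 against 0.031 and 0.0045 over all genes. Ier5 was at 1.46 and 1.41, and Jund at 1.24 in males. Of the HSP90 co-chaperones 5 of 9 and 3 of 6 were lower, with Ppid at -0.82 and -0.78, and 1 and 0 were higher, namely Unc45a in females at 0.52 (adjusted p = 0.013). Mitochondrial chaperones were lower in 6 of 7 and 1 of 4, the latter being Hspd1 at -0.87.

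G2/M-marker-high cells (1984 female and 214 male cells) showed both cold-inducible genes higher. Rbm3 was at 1083 to 1470 CPM in G2/M-high and 884 to 1144 in other cells of females, and at 1625 to 2139 against 1059 to 1807 in males, higher in 10 of 10 mice of each. The log2 folds were 0.35 (SE 0.02, adjusted p = 2.6e-12) and 0.52 (SE 0.07, adjusted p = 2.2e-06). Cirbp was at 0.52 (SE 0.05, adjusted p = 8.0e-09) and 0.51 (SE 0.14, adjusted p = 0.0086), the male value on 486 UMIs and not called by DESeq2 (adjusted p = 0.081) or without a filter (adjusted p = 0.068).

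Hspa5 was lower in G2/M-high cells, by log2 folds of -0.30 (SE 0.04) in females and -0.39 (SE 0.08) in males, in 10 of 10 and 9 of 10 mice. The male Hspa5 call was lost at 2000 UMIs per cell (log2 fold -0.26, adjusted p = 0.13). Hsp90aa1 was higher by 0.57 (SE 0.05) and 0.35 (SE 0.11), the male call being lost by DESeq2 (adjusted p = 0.069). Dnajb1 was higher by 0.34 (SE 0.06) and 0.54 (SE 0.20), the male call with an adjusted p of 0.046 by edgeR that was lost in 6 of 10 fits with a mouse left out. In females 6 of 10 members were higher and 1 lower, where 30.8% of genes were higher and 34.4% lower, and in males 4 of 8 were higher and 2 lower, where 13.8% and 14.4% were. Of the endoplasmic reticulum genes 6 of 18 and 11 of 14 were lower and 1 and 0 higher, with Calr, a lectin chaperone, at -0.68 in males.

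Hsp90ab1 went in opposite directions by pool. It was higher in G2/M-high cells of 10 of 10 females, at 1876 to 2270 against 1407 to 2022 CPM (log2 fold 0.29, SE 0.04, adjusted p = 3.3e-07). In males it was higher in 2 of 10, at 542 to 766 against 604 to 1068 (log2 fold -0.21, SE 0.08, adjusted p = 0.048). The mean log2 ratio per mouse was 0.29 ± 0.16 in females and -0.18 ± 0.25 in males (SD, n = 10), a difference of 0.47 (two-sided permutation test over pool labels, p = 6.0e-05, adjusted p = 0.0014 over 24 such comparisons of members and classes). The male fall lost its call at 2000 UMIs per cell (log2 fold -0.03) and in 7 of 10 fits with a mouse left out. Hspa8 differed likewise, at 0.20 ± 0.08 in females (10 of 10 higher) and -0.02 ± 0.17 in males (5 of 10), a difference of 0.21 (permutation p = 0.0015, adjusted p = 0.018). Depth was unlike in the pools, with medians of 16808 in female and 7514 in male G2/M-high cells. The mix of cells was unlike too, as 836 of 1984 female and 44 of 214 male G2/M-high cells were also NeuMo-high. The part of depth and of this mix in the differences was not tested.

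Female cells at or over 5% mitochondrial UMIs, which the study's filter removes, were compared with those under it in the 9 mice that had at least 10 of them (366 cells in all). Mitochondrial genes were left out of this comparison, and its CPM are per 1000000 UMIs of nuclear genes. Hsp90aa1 was at 458 to 733 CPM against 339 to 461, higher in 9 of 9 mice (log2 fold 0.64, SE 0.07, adjusted p = 2.8e-09 by edgeR), and Hsp90ab1 at 2076 to 2981 against 1651 to 1951 (0.46, SE 0.06, adjusted p = 9.3e-08). Hspa5 was higher by 0.24 and Hspa8 lower by 0.15, and both of these calls were lost by DESeq2 and in fits with single mice left out. Thus 3 of 8 members tested were higher and 1 lower, where 13% of genes were higher and 14% lower. Hspa1a had 2 UMIs in the high cells and 306 in the others, did not pass the filter, and was lower by DESeq2 (log2 fold -2.03, adjusted p = 0.038). Of the immediate early genes 13 of 15 were lower and 0 higher. The 114 cells at or over 10% had a median of 1376 UMIs against 9587, and with them alone the median log2 fold of all genes was -0.46. In that setting Hsp90aa1 was at -0.35, Hsp90ab1 at -0.92 and Hspa5 at -0.33, so that their sign turned with that shift of all genes, Hsp90aa1 and Hspa5 lying above the median gene and Hsp90ab1 below it, while Rbm3 was at -1.34 and Hspa8 at -1.35.

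Correlation over cells, which the choice of genes had used, was weak. Values were log2 of UMIs per 10000 plus 1, computed within each mouse, and the median over 10 mice is given with its range. Rbm3 went with Hsp90aa1 at r = 0.24 in females (0.20 to 0.29) and 0.21 in males (-0.05 to 0.34), and with Hsp90ab1 at 0.24 (0.17 to 0.31) and 0.17 (0.01 to 0.34). Cirbp went with Hsp90aa1 at 0.14 and 0.11. At 2000 UMIs per cell the Rbm3 values fell to 0.06 and 0.05 with Hsp90aa1 and 0.10 and 0.08 with Hsp90ab1, so that they were smaller at equal depth. Rbm3 and Hspa1a were at -0.03 in females and -0.02 in males, and Rbm3 and Cirbp at 0.07 in both. Cells of a mouse share library and base composition, and in sparse counts such values are no finding.

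**Figure D5:**
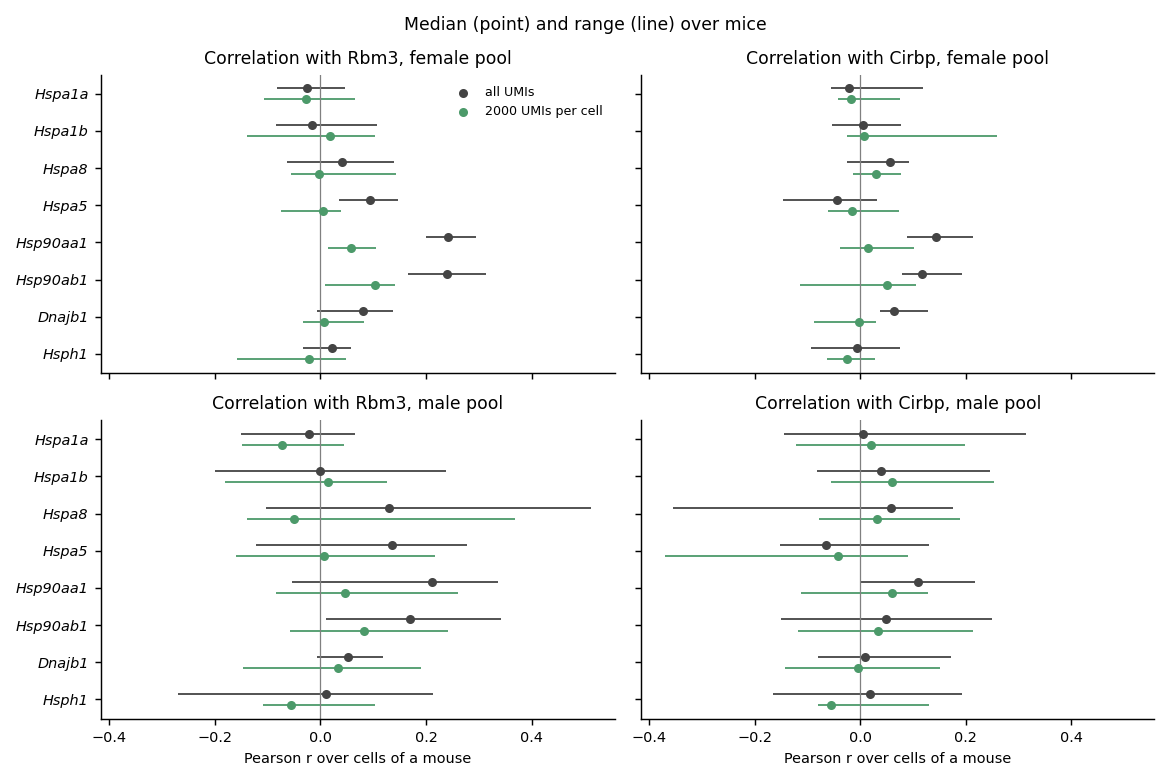
Pearson r over the cells of a mouse between each heat-shock gene and Rbm3 or Cirbp, as the median (point) and range (line) over mice in the female and male pools, with all UMIs (dark grey) and at 2000 UMIs per cell (green). With all UMIs the largest female medians were those of Rbm3 with the HSP90 genes at 0.24, and at equal depth these were 0.06 and 0.10.

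Among the heat-shock genes the HSP90 pair had the largest female r, at 0.46 in females (0.40 to 0.67) and 0.29 in males (0.11 to 0.47), and 0.19 and 0.13 at equal depth, above 0 in 10 of 10 mice throughout. In females, surface antibodies were counted in the same cells. On centred log counts Hsp90ab1 had a median r of -0.46 (-0.54 to -0.39) with CD11b and 0.30 (0.21 to 0.34) with CD115, and Hsp90aa1 -0.38 and 0.23. Rbm3 was at -0.25 with CD11b, and Hspa1a at 0.01. With surface MHC-II, Hspa8 was at 0.11 (0.01 to 0.17) and Rbm3 at -0.11. Values with antibodies were taken with all UMIs and not at equal depth. Centring ties the antibodies of a cell to each other, so opposite signs are not separate results.

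The genes most like Rbm3 over the 10 female mice, with age means removed, were Il6st (r = 0.98), 4833407H14Rik (0.97), Rab3d (0.96), Cyp4f16 (0.96) and Nr1d2 (0.95), the highest of 10073 genes ranked. Over the 10 males Il6st was at -0.53, Rab3d at 0.28 and Cyp4f16 at -0.64, so these 3 were not alike there. Those most like Hspa8 were BC147527 (0.97), Dnajc9 (0.94), Il21r (0.93), Lactb (0.92) and Ints3 (0.92), and in males BC147527 was at 0.42, Dnajc9 at -0.22 and Lactb at 0.09.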

How the data were processed

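Bone marrow monocytes of 20 mice were measured by scRNAseq in 2 pools, with hashtag counts for each cell. The values deposited by the authors were counts of UMIs for each gene, hashtag or antibody in each cell, whole and not normalized, made, per their methods and submitters' notes, by alignment with STAR 2.5.1 to mm10 and counting with Cell Ranger 4.0.0 (the deposited file headers name other versions, which differ between the pools). The use of strand is not given in the sources used here.

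The male data held only cells under 5% mitochondrial UMIs with 0 negative for hashtags, so each of the 1227 was given to its leading hashtag. HTODemux would call 401 of them doublets, although their leading hashtag held a median of 95.1% of hashtag counts. The 10433 female barcodes were called with HTODemux (Seurat 5.3.0, centred log ratios), and 7013 singlets were kept and 2478 doublets and 942 negatives left out. Cells needed over 200 genes and under 5% mitochondrial UMIs. No further doublet caller was run, and the small subset of female cells that the study removed after clustering was kept.

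Counts were summed per mouse, or per mouse and class with at least 10 cells in each, and tested over all genes by quasi-likelihood F tests in edgeR 4.0.16 (TMM factors, genes kept by filterByExpr, two-sided, Benjamini-Hochberg at 0.05), with DESeq2 1.42.0 as an alternative. Class comparisons had the mouse as a block. The edgeR fits were tested on simulated data. SE is the log2 fold over the root of F. Nothing says that cells were stained or sorted on different days within a pool. Differences between pools used permutation of 100000 draws. Named genes were the 10 members, and of each list the called genes, at most the 4 largest each way. Members and lists were chosen with earlier results of these data known. Gene positions came from GENCODE M21, whose release may differ from the one used for counting. Dispersion was estimated over the sums of the mice, so an SE takes in their spread and not counting error alone. In class comparisons this is the spread left after the mouse block. Alternatives were filters, normalization, cell assignment, marker cuts, thinning to 2000 UMIs and leaving out each mouse. Cell assignment and scaling by library size alone were tried in the age fits only. No class comparison was repeated with another cell assignment. A list with a gene that is not reported here was left out of the text.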

Additional observations from a re-analysis of the deposited data

Results flagged for a closer look

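The difference between G2/M-marker-high and other cells was not the same in the 2 pools for 2 members. For Hsp90ab1 the mean log2 ratio of females exceeded that of males by 0.47 (0.29 ± 0.16 against -0.18 ± 0.25, SD, n = 10 each, permutation adjusted p = 0.0014). For Hspa8 it did so by 0.21 (0.20 ± 0.08 against -0.02 ± 0.17, permutation adjusted p = 0.018). These were 2 of 24 comparisons, and sex, experiment and processing of the pools cannot be told apart. The G2/M classes of the pools also differed in depth and in their overlap with the NeuMo class. Among 40 groups of 5 mice, 0 members had a mouse whose gap to its nearest neighbour, over the range of the group, passed Dixon's critical value of 0.71.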

How the results depend on the processing

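No paired analysis was possible because mouse numbers do not tie an old mouse to a young one, while class comparisons had the mouse as a block throughout. The 0 genes called by age in males became 23 with DESeq2 and 95 without a filter on low counts, and 0 to 39 with a mouse left out (39 without old male 1 and 24 without old male 4). The 345 in females were 453 with cells assigned by a leading hashtag of 80% or more, and 194 to 522 with a mouse left out, with 522 without old female 4 and 194, 214, 215 and 216 without young females 2, 1, 5 and 4. Members called by G2/M class in males fell from 6 to 2 with DESeq2 and to 2 at 2000 UMIs per cell, where only 5 members were tested. With a mouse left out, members called were 4 to 5 for that comparison and 7 to 8 in females, 8 for NeuMo in females and 4 to 5 in males, 6 to 7 for DCMo in females and 5 to 6 in males, and 2 to 4 by mitochondrial share, with 2 without young female 4. At 10% or more mitochondrial UMIs the median of all genes was at -0.46, and with it the signs of Hsp90aa1 (-0.35), Hsp90ab1 (-0.92) and Hspa5 (-0.33) turned, only Hsp90ab1 of these lying below that median. The cause of these moves was not tested. All 328 alternative age folds of members moved by less than 1 SD between mice. Leaving out 1 of 5 mice can hardly move a fold by that much, so this is no measure of stability. With a mouse left out, male folds ran from -0.87 to 0.05 for Hspa1a and from -0.74 to 0.28 for Hspa1b. Of 246 alternative class folds of members with all mice, 218 stayed on their side of the threshold, 16 lost and 9 gained a call, and 3 reversed. Thinning or leaving out G2/M cells moved 17 of 68 per-cell correlations by over 1 SD. Naming female singlets by their highest raw hashtag and leaving out G2/M cells from NeuMo and DCMo comparisons were chosen after seeing the data. Low counts of Hspa1a, Hspa1b and Hsph1 limit what can be said of them, and a fold of Hspa1a in females rests on 335 UMIs.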
